A study of Mus musculus with 2 samples.

Results

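Among sorted endothelial-lineage cells of mouse lung, a set of shallow droplets carried almost no mitochondrial RNA, and the genes read from them are described here. Members were cell barcodes with at least 500 genes, 800 to 3000 unique molecular identifiers (UMIs, each counting 1 captured RNA molecule), at most 0.5% of UMIs from the 13 mitochondrially encoded genes, and at least 1 UMI of Pecam1 or Cdh5. They numbered 1261 of 27041 barcodes, with 863 of 11045 in the aKO library and 398 of 15996 in the aWT library. They were set beside reference barcodes from the same library that met the same limits on UMIs, genes and Pecam1 or Cdh5 but had 1% to 15% mitochondrial UMIs, of which there were 813 in aKO and 3668 in aWT. Mitochondrial share, UMI count and the levels of Pecam1 and Cdh5 chose the barcodes, so the members were selected on these values, which are given as description alone.

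The series placed its mice in a model of hereditary hemorrhagic telangiectasia 2, a vascular disorder tied to the endothelial receptor ALK1, encoded by Acvrl1. Both libraries came from lungs of C57BL/6J mice aged 10 to 12 weeks, dissociated with Dispase and DNase I and sorted for tdTomato, a red fluorescent protein switched on by a cre recombinase under the VE-cadherin promoter, which is active in endothelial cells. The titles label 1 library aKO and 1 aWT. The alleles behind these labels, any inducing treatment, and the number, pooling and sex of the animals are not given in the labels. With 1 library per label no difference between groups or sets of barcodes could be tested, barcodes are not replicates, and every interval covers counting error only.

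As background, mitochondria keep a small genome of their own, and its transcripts are normally abundant in the cytoplasm of a cell. Nuclear genes supply most of the respiratory chain, the import machinery and the cytosolic ribosome, mostly from short genes with abundant cytoplasmic mRNA, whereas long genes hold much intron sequence in their unspliced nuclear transcripts. In the lung, the endothelium comprises general capillary cells, aerocytes (the thin gas-exchange capillary cells), arterial, venous and lymphatic cells. Fendrr is a long noncoding RNA next to Foxf1 and is known from lung endothelium and mesenchyme.

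Members had few mitochondrial UMIs by choice. The median was 3 in aKO members and 53 in aKO reference barcodes, and 5 in aWT members and 68 in aWT reference barcodes, and 69 aKO and 8 aWT members had 0. Depth was somewhat lower in members, at a median of 1753 UMIs and 1142 genes in aKO members against 2003 UMIs and 1203 genes in aKO reference barcodes, and 1675 UMIs and 1029 genes in aWT members against 2189 UMIs and 1279.5 genes in aWT reference barcodes. After each barcode was thinned to 800 nuclear-encoded UMIs, which left out 12 aKO reference, 1 aWT member and 35 aWT reference barcodes, the median was 607 genes in aKO members and 608 in aKO reference barcodes, and 577 in aWT members and 599 in aWT reference barcodes. At equal depth, then, gene number was close in aKO and somewhat lower in aWT members. Summed nuclear-encoded UMIs were 1551204 in aKO members, 1532640 in aKO reference barcodes, 696991 in aWT members and 7353882 in aWT reference barcodes. The whole libraries held 75950364 UMIs (median 5756 per barcode) in aKO and 72270260 (median 3951) in aWT. Of 48 barcode sequences found in both libraries, 6 belonged to aKO members and 0 to aWT members.

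Low-mitochondrial barcodes made up 41.6% of the 2073 shallow endothelial barcodes of aKO (95% Clopper-Pearson interval 39.5 to 43.8) and 8.95% of the 4449 of aWT (8.12 to 9.82). A further 353 aKO and 343 aWT barcodes lay between 0.5% and 1%, and 44 and 40 lay above 15%. The same limit on mitochondrial share was met by 652 of 8414 deeper endothelial barcodes in aKO (7.75%) and by 92 of 10805 in aWT (0.851%). In both libraries, low mitochondrial share was thus more frequent among shallow than among deeper barcodes, and in both depth ranges it was more frequent in aKO. This split is by the values that chose the members, and 1 library stands behind each share.

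**Figure D1:**
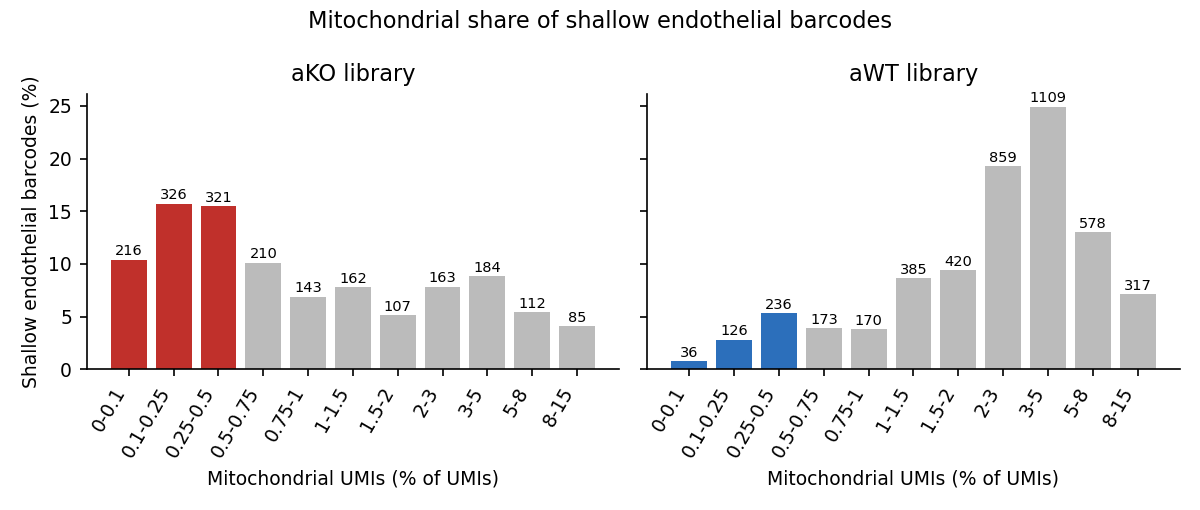
Percentage of shallow endothelial barcodes (800 to 3000 UMIs, at least 500 genes, at least 1 Pecam1 or Cdh5 UMI) in each class of mitochondrial share, in aKO (left) and aWT (right); bars of members are coloured, others grey, and the number above each bar is the count of barcodes. In aKO 863 barcodes lie in the coloured classes, and in aWT 398, where the tallest bar is the class of 3% to 5% with 1109 barcodes.

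The mitochondrial limit of the rule did not fall in a gap. Ribosomal protein genes took 2.27% of nuclear-encoded UMIs in the 123 aKO members at 0.4% to 0.5% mitochondrial UMIs and 2.27% in the 92 aKO barcodes just outside at 0.5% to 0.6%. The same pair of values was 1.09% in 99 aWT barcodes inside and 1.11% in 60 outside. Barcodes on either side of the line were alike in this measure. Within members holding 1 Pecam1 or Cdh5 UMI, ribosomal protein genes took 2.29% in 100 aKO and 1.65% in 52 aWT barcodes, and in otherwise equal barcodes with 0 such UMIs they took 2.16% in 57 aKO and 1.71% in 20 aWT barcodes. Within 100 UMIs of the lower depth limit the sets were small, with 2.14% in 42 aKO members inside and 2.46% in 26 aKO barcodes outside, and 4.87% in 14 aWT members inside and 1.25% in 11 aWT barcodes outside. Within 100 UMIs of the upper limit they took 1.66% in 27 aKO members inside and 3.17% in 21 aKO barcodes outside, and 1.64% in 5 aWT members inside and 0.734% in 8 aWT barcodes outside. At both depth limits members were thus lower than barcodes outside in aKO and higher in aWT, in small sets.

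Genes outside the rule were set beside the endothelial label. Levels are given as CPM, the UMIs of a gene per 1000000 nuclear-encoded UMIs, both summed over the barcodes of a set. Fendrr (ENSMUSG00000097336, chromosome 8, 121054882 to 121083110, minus strand, mm10) stood at 1774 CPM in aKO members (95% Poisson interval 1708 to 1842) and 782 in aKO reference barcodes (738 to 827). In aWT it stood at 892 CPM in members (824 to 965) and 664 in reference barcodes (645 to 683). Summed over all depths, members were higher in both libraries, with log2 ratios of 1.18 and 0.42, each computed after adding 5 CPM to both levels. At 800 to 1500 UMIs, however, Fendrr took 0.0815% of nuclear-encoded UMIs in aWT members and 0.0841% in aWT reference barcodes. It was higher in members in aWT at 1500 to 2200 and 2200 to 3000 UMIs, and at each of these depths in aKO. All 20 genes of a pan-endothelial list were measured in members, meaning at least 50 CPM in 1 of the sets compared. Summed, that list reached 19128 CPM in aKO members against 18381 in aKO reference barcodes, and 19162 in aWT members against 25003 in aWT reference barcodes. How much of this RNA was free RNA of the sorted sample, which would carry the same genes, was not tested.

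The 2 marker genes of the rule were present in both sets of both libraries. Pecam1, an adhesion molecule of endothelial junctions, had 1759 CPM in aKO members and 1821 in aKO reference barcodes, and 1339 in aWT members and 1543 in aWT reference barcodes. Cdh5, which encodes VE-cadherin, had 868 CPM in aKO members and 1097 in aKO reference barcodes, and 1181 in aWT members and 2042 in aWT reference barcodes, with ratios of -0.34 and -0.79, the second past 1.5-fold. tdTomato, the sorting reporter, had 130.2 CPM in aKO members and 112 in aKO reference barcodes, and 40.2 in aWT members and 102 in aWT reference barcodes; it was therefore detected in members of both libraries, and its log2 ratio was 0.21 in aKO and -1.24 in aWT.

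Markers of other lineages were low, apart from epithelial secretory genes in aWT. The 12 T, B and NK cell markers summed to 1.93 CPM in aKO members (11 of 12 at 0, including Ptprc and Cd3e) and 4.57 in aKO reference barcodes, and to 1.43 in aWT members (11 of 12 at 0) and 1.77 in aWT reference barcodes. A count of 0 allows up to 1.93 CPM in aKO members and 4.30 CPM in aWT members, at 3 UMIs per set. Summed fibroblast markers stood at 14.2 CPM in aKO members and 38.5 in aKO reference barcodes, and at 17.2 in aWT members and 9.11 in aWT reference barcodes, with Dcn and Col1a2 at 0 in members of both libraries. Pericyte and smooth muscle markers summed to 27.1 CPM in aKO members against 37.2 in aKO reference barcodes, and to 33.0 in aWT members against 28.6 in aWT reference barcodes. Platelet, erythroid and myeloid lists summed to 1.29 to 13.5 CPM in aKO members against 3.26 to 18.9 in aKO reference barcodes, and to 8.61 to 63.1 in aWT members against 14.7 to 59.02 in aWT reference barcodes.

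Epithelial genes were the exception. The airway list summed to 14.8 CPM in aKO members and 30.01 in aKO reference barcodes, and to 171 in aWT members and 138 in aWT reference barcodes. Sftpc, a surfactant gene of type II alveolar epithelium, had 8.38 CPM in aKO members and 17.6 in aKO reference barcodes, and 412 in aWT members and 283 in aWT reference barcodes. Its level was high in both aWT sets and low in both aKO sets, and its part in any other result was not tested. The alveolar list as a whole, most of it Hopx and Abca3 in aKO, summed to 509.9 CPM in aKO members against 635 in aKO reference barcodes and to 631 in aWT members against 629 in aWT reference barcodes.

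The first comparison was of members with reference barcodes of the same library, asking which nuclear-encoded transcripts go with a low mitochondrial share. Genes for making and running proteins were lower in members: every measured ribosomal protein gene, nearly all translation factors, most nuclear-encoded respiratory chain subunits, and much of the actin cytoskeleton and secretory cargo. Long genes had higher medians, by little in aKO, and in aWT many noncoding RNAs were higher. By a size rule of 2-fold and at least 50 CPM in 1 set, 58 of 4729 genes (1.23%) were higher and 390 (8.25%) lower in aKO members. In aWT, 217 of 4548 genes (4.77%) were higher and 741 (16.3%) lower in members. This minimum lets a gene pass through its level in members alone. A minimum of 50 CPM in reference barcodes was picked after values were seen. With it, 40 of 4380 genes (0.913%) were higher and 390 (8.9%) lower in aKO members. In aWT members 69 of 4046 (1.71%) were then higher and 741 (18.3%) lower. Lower calls outnumbered higher ones in both libraries. Barcodes with under 1% Malat1 made up 1.51% of aKO members and 15.7% of aKO reference barcodes, and without them, a check added after the values were seen, aKO had 38 higher and 230 lower genes. The median log2 ratio of all measured genes was 0.05 in aKO and 0.12 in aWT; TMM scaling moved the aWT median by -0.25 to -0.13 and gave 135 higher and 988 lower genes, so that higher genes made up 12.0% of aWT calls instead of 22.7%.

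Across the libraries the lower genes overlapped more than the higher ones. Of 4114 genes measured in both, 313 were 2-fold lower in aKO members and 706 in aWT members, and 205 were shared, which is 65.5% of the aKO and 29.0% of the aWT genes. In aWT 706 of all 4114 genes were lower. Of 41 higher in aKO and 84 higher in aWT only Sox5 was shared. That share of the 41 is near the share of all genes, 84 of 4114 being higher in aWT. The same sign was seen for 35 of the 41 in aWT and for 26 of the 84 in aKO. Of the 84 higher in aWT members, 23 were 2-fold lower in aKO members, where 313 of all 4114 genes were. Of the 41 higher in aKO members, 0 were 2-fold lower in aWT members. At the looser limit of 1.5-fold, 584 lower genes were shared (75.8% of 770 in aKO, 53.3% of 1096 in aWT). So were 87 higher genes (26.7% of 326 in aKO, 13.3% of 652 in aWT), beside 652 of all 4114 genes higher in aWT. By that limit 76 of the 652 higher in aWT were lower in aKO, beside 770 of all 4114 genes. Lower in aWT were 14 of the 326 higher in aKO, beside 1096 of all 4114 genes. Log2 ratios of the 2 libraries correlated across the 4114 genes with a Pearson r of 0.54 and a Spearman correlation of 0.50. These are descriptions, since genes are not independent replicates.

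Cytosolic ribosomal protein genes gave the most uniform result. All 80 measured of 86 genes were at least 1.5-fold lower in aKO members, where 19.3% of all genes were lower by that limit, and all 80 were lower in aWT members, where 25.4% were. The median log2 ratio was -1.30 in aKO and -1.70 in aWT. Summed, they made up 18992 CPM in aKO members and 47609 in aKO reference barcodes, and 11900 CPM in aWT members and 39333 in aWT reference barcodes. Rps2 had 117 CPM in aKO members and 420.2 in aKO reference barcodes, and 121 in aWT members and 369 in aWT reference barcodes. Rpl35 had 132 CPM in aKO members and 441 in aKO reference barcodes, and 63.1 in aWT members and 242 in aWT reference barcodes. Both were lower in members of each library. Many of these genes have near-identical processed copies in the genome, so single values are uncertain where counting could split them. Per barcode, the ribosomal protein share was 1.58% at the median in aKO members (10th to 90th percentile 0.667% to 3.02%) against 2.94% in aKO reference barcodes (0.798% to 9.60%), and 0.711% in aWT members (0.399% to 2.06%) against 3.16% in aWT reference barcodes (0.880% to 7.12%). In aKO, members thus covered the low end of a range that reference barcodes also reached. In aWT the median of members, 0.711%, lay below the 10th percentile of reference barcodes, 0.880%.

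The pattern held at each depth examined. In barcodes of 800 to 1500 UMIs, ribosomal protein genes took 1.97% in aKO members against 2.93% in aKO reference barcodes, and 1.72% in aWT members against 3.30% in aWT reference barcodes. At 2200 to 3000 UMIs they took 1.99% in aKO members against 5.47% in aKO reference barcodes, and 0.977% in aWT members against 4.16% in aWT reference barcodes. The difference was larger in the deeper class in both libraries.

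Translation factors followed the ribosomal genes. In aKO members 17 of 18 were 1.5-fold lower (median log2 ratio -1.06) and in aWT members 16 of 18 (-1.55). Tpt1, an abundant translationally controlled mRNA, had 611 CPM in aKO members and 1737 in aKO reference barcodes, and 598 in aWT members and 2012 in aWT reference barcodes. Eef1b2, a subunit of elongation factor 1, had 56.1 CPM in aKO members and 159 in aKO reference barcodes, and 48.8 in aWT members and 149.6 in aWT reference barcodes. Members of each library were again lower for both.

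Nuclear-encoded respiratory chain subunits were lower along with the mitochondrial transcripts that defined the members. In aKO members 28 of 33 were 1.5-fold lower and 0 higher (median -0.88), and in aWT members 32 of 32 were lower (-1.54). Cox6c of complex IV had 104 CPM in aKO members and 275 in aKO reference barcodes, and 61.7 in aWT members and 189 in aWT reference barcodes. Uqcrb of complex III had 87.7 CPM in aKO members and 219.9 in aKO reference barcodes, and 33.0 in aWT members and 187 in aWT reference barcodes. Atp5e of the ATP synthase had 95.4 CPM in aKO members and 243 in aKO reference barcodes, and 31.6 in aWT members and 157 in aWT reference barcodes.

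Import and chaperone genes of mitochondria behaved likewise: 13 of 14 were lower in aKO members (median -0.76) and 12 of 15 in aWT members (-1.05). Tomm22, a receptor of the outer membrane translocase, had 27.7 CPM in aKO members and 82.9 in aKO reference barcodes, and 20.1 in aWT members and 76.8 in aWT reference barcodes.

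Genes for mitochondrial turnover and biogenesis did not share this shift. In each library 2 genes were lower and 0 higher, among 8 measured in aKO (median -0.03) and 7 in aWT (0.04, and -0.16 with TMM scaling). Of all genes 19.3% were lower in aKO and 25.4% in aWT, so the lower counts lay near these shares. Higher were 8.84% and 18.9% of all genes. Nrf1, a nuclear respiratory factor that drives respiratory chain genes, had 176 CPM in aKO members and 144 in aKO reference barcodes, and 171 in aWT members and 117 in aWT reference barcodes. Opa1 and Dnm1l, which act in fusion and fission of mitochondria, had log2 ratios of -0.04 and 0.21 in aKO and 0.04 and 0.19 in aWT. The lower pair was Bnip3l and Map1lc3b, which encode a mitophagy receptor and an autophagosome protein. Their ratios were -0.91 and -0.69 in aKO and -0.78 and -1.42 in aWT. Bnip3l spans 23.6 kb, Map1lc3b 8.4 kb and Nrf1 105 kb, and the part of gene span in these ratios was not tested.

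Further gene groups were also lower in members. Of 17 actin and tubulin genes, 13 were lower in aKO members (median -0.87) and 15 in aWT members (-1.39). Tmsb4x, which encodes the actin-binding thymosin beta 4, had 1309 CPM in aKO members and 3539 in aKO reference barcodes, and 769 in aWT members and 2665 in aWT reference barcodes. Of secreted and membrane cargo genes, 18 of 19 were lower in aKO members (-0.92) and 15 of 18 in aWT members (-1.20), among them Sparc, a matrix glycoprotein, with ratios of -1.33 and -1.45. Genes of a hypoxia and glycolysis list were lower for 5 of 6 in aKO (-1.10) and 3 of 4 in aWT (-1.11).

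Immune and stress lists are read against 19.3% of all genes 1.5-fold lower in aKO and 25.4% in aWT. MHC class I genes were lower for 3 of 11 in aKO members (median -0.42), a share near that of all genes, and 10 of 11 in aWT members (-1.59); B2m, the light chain, had 662 CPM in aKO members and 1067 in aKO reference barcodes, and 476 in aWT members and 1452 in aWT reference barcodes. Interferon response genes were lower for 5 of 9 in aKO (-0.74) and 6 of 9 in aWT (-1.04), and Ifitm3, an antiviral membrane protein gene, had 456 CPM in aKO members and 979 in aKO reference barcodes, and 298 in aWT members and 1223 in aWT reference barcodes. Heat shock genes were lower for 7 of 9 (-0.84) and 5 of 10 (-0.63), and immediate early genes for 7 of 15 (-0.53) and 8 of 16 (-0.62, with 1 higher). Genes of the p53 response were lower for 1 of 6 in aKO (-0.05), no more than all genes, and for 3 of 6 in aWT (-0.84). Of proliferation genes Stmn1 and Hmgb2 alone were measured, 1 of which was lower in aKO members and both in aWT members, and MHC class II genes were measured in aWT alone, where 3 of 3 were lower (-1.54).

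**Figure D2:**
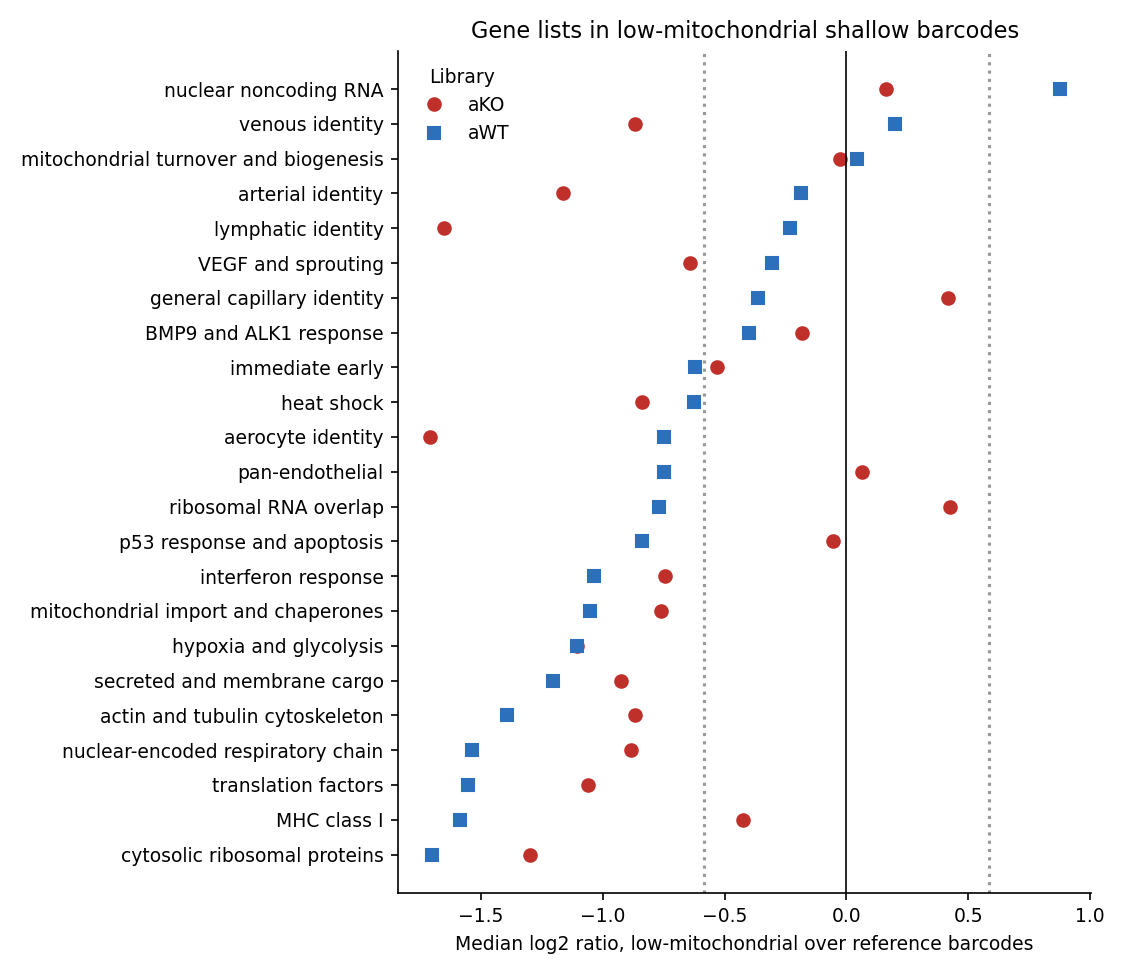
Median log2 ratio of each gene list with at least 3 measured genes in both libraries (x axis; low-mitochondrial members over reference barcodes) in aKO (red circles) and aWT (blue squares), with dotted lines at 1.5-fold. Cytosolic ribosomal proteins lie at -1.30 and -1.70 and nuclear noncoding RNA at 0.16 and 0.88, while the lymphatic list is at -1.65 in aKO and -0.23 in aWT.

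The genes with the strongest change in aKO members that had the same sign in aWT were mostly long where higher and mostly short where lower: the 11 highest described here spanned 22.8 to 805 kb and the 12 lowest 2.27 to 60.1 kb. Zbtb16 (chromosome 9, 48654297 to 48836222, minus strand), which encodes a zinc finger transcription factor and spans 182 kb, had 1311 CPM in aKO members and 463 in aKO reference barcodes, and 795 in aWT members and 528 in aWT reference barcodes. Its log2 ratio was 1.49 in aKO and 0.59 in aWT. Tnik, a kinase gene of 413 kb, had 789 CPM in aKO members and 296 in aKO reference barcodes, and 281 in aWT members and 151 in aWT reference barcodes, with ratios of 1.40 and 0.87. Adgrl3, which encodes a latrophilin adhesion receptor and spans 805 kb, had 6168 CPM in aKO members and 2559 in aKO reference barcodes, and 5095 in aWT members and 3287 in aWT reference barcodes, with ratios of 1.27 and 0.63.

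The remaining highest genes ranged from 1.28 to 1.44 in aKO and from 0.08 to 0.71 in aWT. They were Epb41 (a membrane skeleton protein), Chrm2 (a muscarinic receptor), Rin2 (an exchange factor for Rab5), Ccnd3 (a cyclin), Tox2, Gm13387, Inpp5d (an inositol phosphatase) and Plcl1. In aWT, which entered the choice of these genes by sign alone, all 11 lay under 2-fold. Sox5, a transcription factor gene named after its values were seen as the 1 shared 2-fold gene, had 147 CPM in aKO members and 63.9 in aKO reference barcodes, and 122 in aWT members and 55.5 in aWT reference barcodes.

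At the other end, Fth1 (ferritin heavy chain; chromosome 19, 9980598 to 9985098, plus strand; 4.5 kb) had 376 CPM in aKO members and 1666 in aKO reference barcodes, and 238 in aWT members and 796 in aWT reference barcodes, with ratios of -2.13 and -1.72. Among the 12 lowest, Fth1 alone was more than 2-fold lower in members of both libraries. Cd63, a tetraspanin of endosomes, had 21.9 CPM in aKO members and 119 in aKO reference barcodes, and 31.6 in aWT members and 40.4 in aWT reference barcodes, with ratios of -2.21 and -0.31. Gdf15, a stress-induced cytokine of the TGF-beta family, had 6.45 CPM in aKO members and 54.8 in aKO reference barcodes, and 7.17 in aWT members and 11.0 in aWT reference barcodes.

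Several of the lowest genes belong to particular endothelial subclasses. Fibin, Emp2, Chst1 and Tbx2 are on the aerocyte list, Fbln2 on the arterial list and Nts on the lymphatic list. Fibin had 13.5 CPM in aKO members and 165 in aKO reference barcodes, and 51.7 in aWT members and 107 in aWT reference barcodes. Emp2 had 149.6 CPM in aKO members and 703 in aKO reference barcodes, and 283 in aWT members and 517 in aWT reference barcodes. Their ratios were -3.20 and -2.19 in aKO and -0.98 and -0.86 in aWT. The others, AW112010, Cytl1 and S100a6, had ratios between -2.66 and -2.06 in aKO and between -0.90 and -0.12 in aWT.

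**Figure D3:**
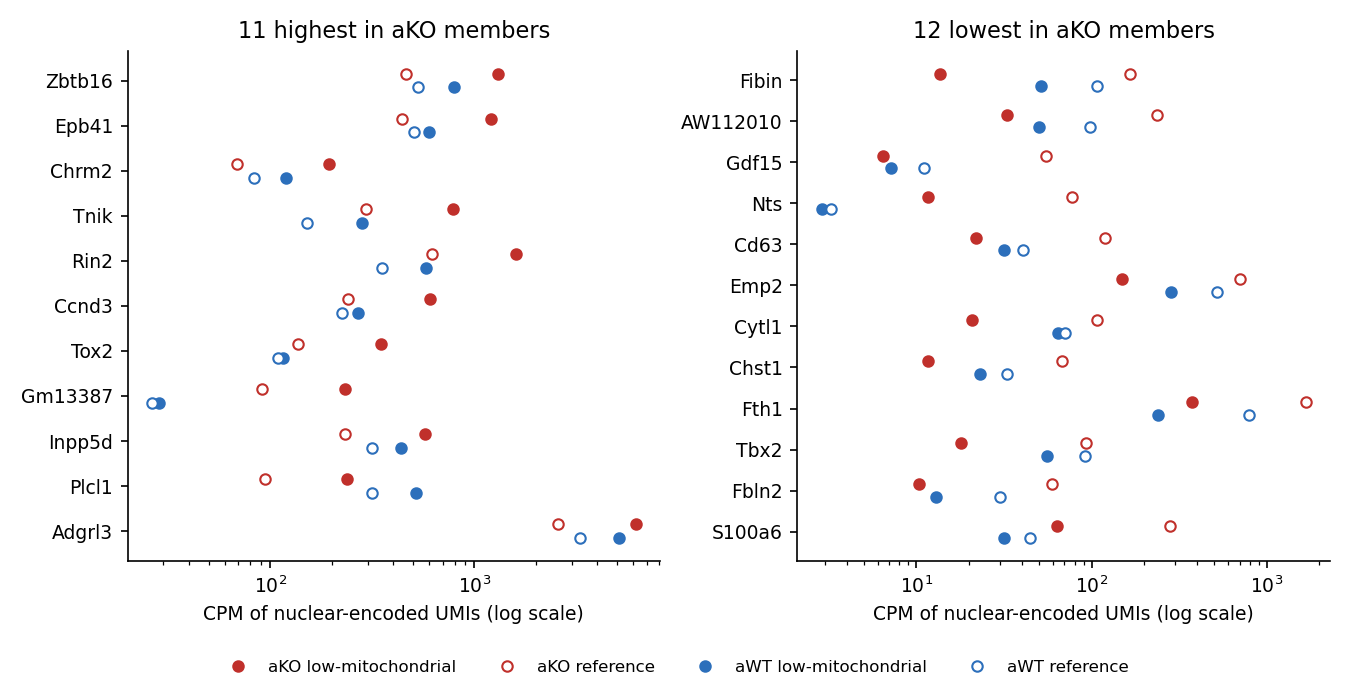
Levels in CPM of nuclear-encoded UMIs (log scale) of 11 genes with the highest (left) and the 12 with the lowest (right) log2 ratio in aKO members that had the same sign in aWT; filled circles are low-mitochondrial members, open circles reference barcodes, red aKO and blue aWT. The genes were chosen by their aKO ratios, so the choice itself favours a wider gap between filled and open circles in red than in blue. Fth1 is far apart in both libraries, with 376 CPM in aKO members and 1666 in aKO reference barcodes, and 238 in aWT members and 796 in aWT reference barcodes.

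Gene span, the annotated distance from start to end including introns, ordered the ratios in both libraries. Across 4728 genes of aKO the Spearman correlation between span and log2 ratio was 0.40, and across 4547 genes of aWT it was 0.76, both as descriptions across genes. In aKO 378 genes under 5 kb had a median of -0.80, and 427 over 200 kb a median of 0.15. Of those 427, 8 (1.87%) were 2-fold higher and 42 (9.84%) lower in aKO members, beside 1.23% and 8.25% of all genes. In the shortest class 2 were higher and 148 lower. In aWT 354 genes under 5 kb had a median of -1.48, with 285 (80.5%) at least 2-fold lower, and 442 over 200 kb a median of 0.70, with 54 (12.2%) higher and 1 lower. The gradient was steeper in aWT, where the interquartile ranges of the shortest (-1.71 to -1.12) and longest (0.57 to 0.84) classes lay far apart. In aKO they were -1.17 to -0.43 and -0.19 to 0.42.

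Of the 87 genes that were 1.5-fold higher in members of both libraries, 72 spanned 100 kb or more, and their median span was 181 kb. Genes of at least 100 kb took a median of 33.1% of nuclear-encoded UMIs per barcode in aKO members against 28.8% in aKO reference barcodes, and 44.7% in aWT members against 29.1% in aWT reference barcodes. The 10th percentile of aWT members, 34.1%, lay above the median of aWT reference barcodes. In aKO the members' range (26.1% to 40.2%, 10th to 90th percentile) lay inside that of the reference barcodes (11.3% to 43.4%). By depth, the summed share at 800 to 1500 UMIs was 32.5% in aKO members and 31.9% in aKO reference barcodes, and 41.2% in aWT members and 34.2% in aWT reference barcodes. At 2200 to 3000 UMIs it was 33.1% in aKO members and 26.02% in aKO reference barcodes, and 43.7% in aWT members and 27.4% in aWT reference barcodes. The aKO difference was thus small among the shallowest barcodes. Whether the authors' counting included intronic reads is not given in the sources used here, and its part in the relation with span was not tested.

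**Figure D4:**
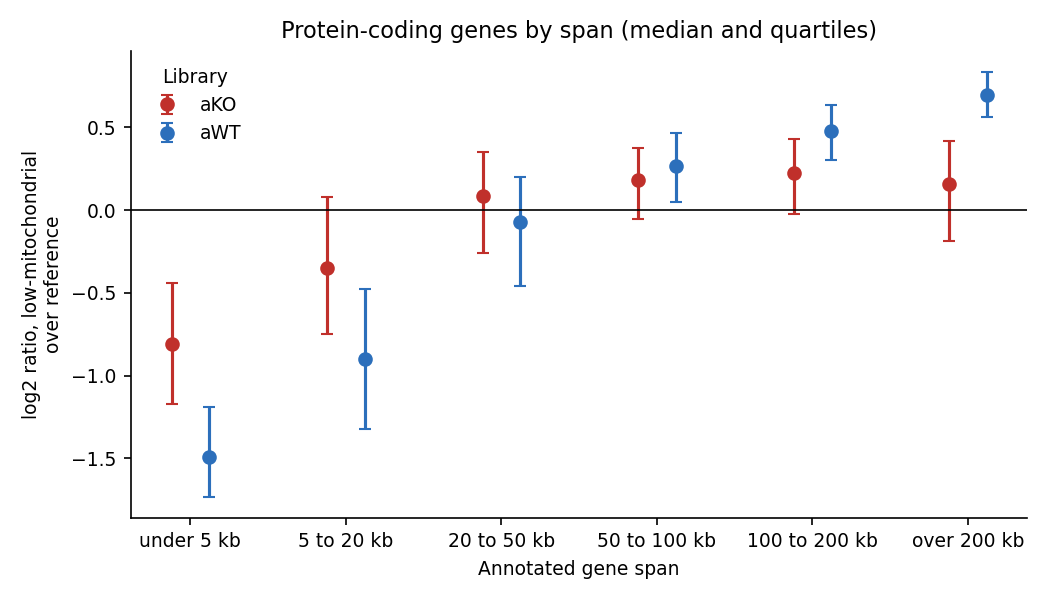
Log2 ratio of low-mitochondrial members over reference barcodes for protein-coding genes by annotated span, as medians with bars from the lower to the upper quartile, in aKO (red) and aWT (blue). Medians climb from -0.81 (aKO) and -1.49 (aWT) for genes under 5 kb to 0.16 and 0.70 for genes over 200 kb, with the highest aKO median, 0.22, at 100 to 200 kb.

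The mitochondrial share was also followed in classes. In aKO the ribosomal protein share of nuclear-encoded UMIs was 1.82% in barcodes with 0 mitochondrial UMIs, 1.91% above 0 to 0.5%, 2.57% at 0.5% to 1%, 3.80% at 1% to 2%, 5.45% at 2% to 5% and 4.81% at 5% to 15%. In aWT the same classes had 1.14%, 1.19%, 1.89%, 3.28%, 4.12% and 4.16%. Both series climbed up to the class of 2% to 5%, after which aKO was lower and aWT flat. Nuclear-encoded respiratory chain genes went the same way, from 0.264% to a highest value of 0.672% at 2% to 5% in aKO and from 0.0652% to 0.512% in aWT. Genes of 100 kb or more ran the opposite way, and the class of 5% to 15% turned back towards higher values in both libraries.

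**Figure D5:**
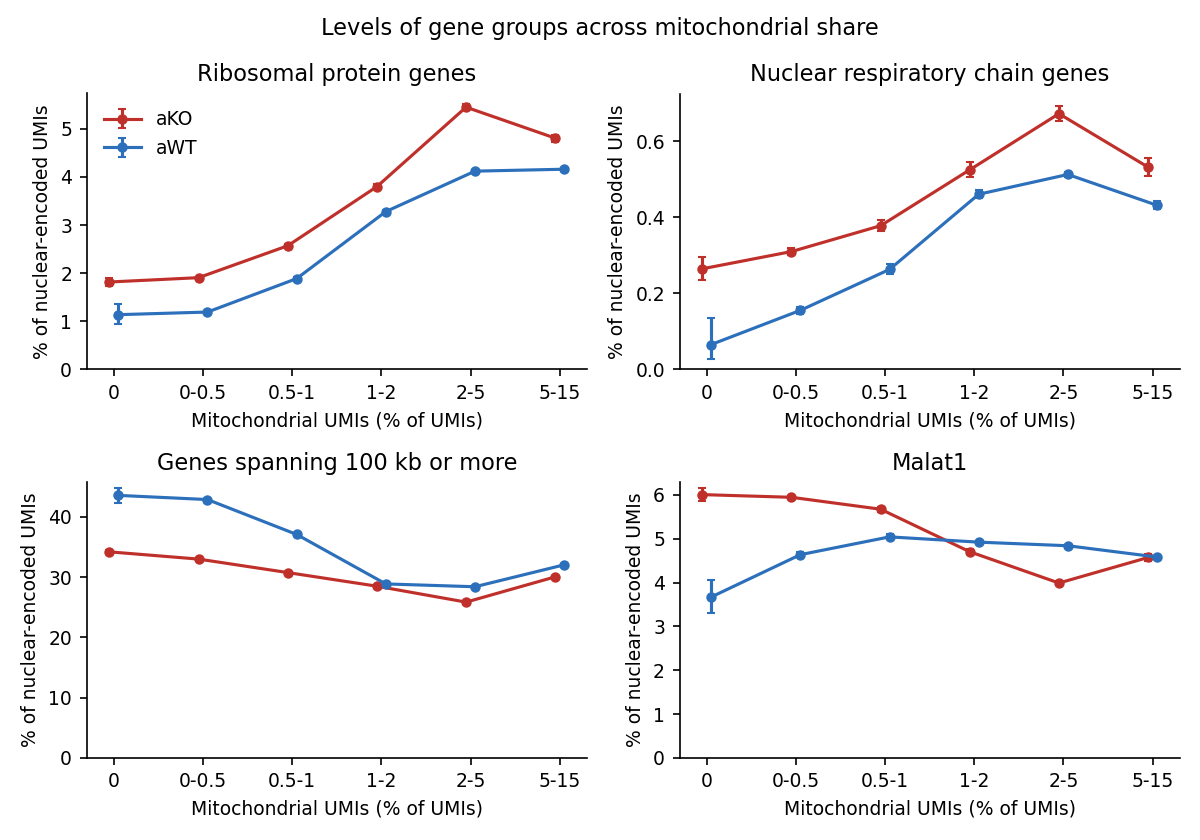
Share of nuclear-encoded UMIs taken by ribosomal protein genes, nuclear respiratory chain genes, genes spanning 100 kb or more, and Malat1 in classes of mitochondrial share (x axis, % of UMIs). Bars are 95% exact Poisson intervals of counting error, in aKO (red) and aWT (blue). Ribosomal protein genes reach 5.45% in aKO and 4.12% in aWT at 2% to 5%, against 1.82% and 1.14% at 0.

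Nuclear noncoding RNA differed between the libraries. Malat1, a nuclear-retained RNA, had 59503 CPM in aKO members and 43580.4 in aKO reference barcodes, and 46217 in aWT members and 48082 in aWT reference barcodes. Its ratio was 0.45 in aKO and -0.06 in aWT. Barcodes with under 1% Malat1 numbered 13 of 863 aKO members and 128 of 813 aKO reference barcodes, and 15 of 398 aWT members (3.77%) and 229 of 3668 aWT reference barcodes (6.24%). The share was thus higher in the aKO reference barcodes than in the other 3 sets. Without them the aKO Spearman correlation with span was 0.21, the median of genes of 100 kb or more was 0.05 instead of 0.20, ribosomal protein genes were lower for 78 of 80 (median -0.99), and respiratory chain genes for 15 of 33 (-0.51). The same step in aWT gave 220 higher and 756 lower genes, a correlation of 0.76 and a ribosomal median of -1.95.

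Beyond Malat1, noncoding genes stood out in aWT members. Because many passed the minimum through aWT members alone, they were counted among genes with at least 50 CPM in the reference barcodes of the same library. Of 62 such noncoding genes, 21 were 2-fold higher and 4 lower in aWT members, where 1.71% of all genes so kept were higher and 18.3% lower. Of 60 in aKO, 2 were higher and 7 lower in members, beside 0.913% and 8.9% of all genes so kept. Among genes annotated as antisense, 15 of 22 were higher and 0 lower in aWT members, and 0 of 15 higher and 1 lower in aKO members. The 2 libraries keep different genes by this rule. Pard3bos1 (ENSMUSG00000085842), an antisense gene, had 12.9 CPM in aKO members and 14.4 in aKO reference barcodes, and 323 in aWT members and 61.6 in aWT reference barcodes. Gm20631 had 12.9 CPM in aKO members and 23.5 in aKO reference barcodes, and 723 in aWT members and 152 in aWT reference barcodes. A430090L17Rik had 5.8 CPM in aKO members and 9.13 in aKO reference barcodes, and 202 in aWT members and 38.3 in aWT reference barcodes. These antisense genes were low in both aKO sets. Whether counting used strand is not given in the sources used here, so reads of an antisense gene and of its partner may not be told apart. Pard3bos1, the classes by annotation and this minimum were picked after values were seen.

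Among long noncoding RNAs of the fixed list, Fendrr was higher in members of both libraries, whereas Mir99ahg and Mir100hg, host genes of microRNA clusters, were lower in aKO members and higher in aWT members. Mir99ahg had 75.4 CPM in aKO members and 210.1 in aKO reference barcodes, and 314 in aWT members and 165 in aWT reference barcodes. By the list, 1 of 8 was higher and 2 lower in aKO (median 0.16), and 7 of 10 higher in aWT (0.88). The higher share in aWT stands beside 18.9% of all genes at 1.5-fold, and in aKO beside 8.84%. This list was set with earlier results of these data known and holds Gm20631 and 4930444A19Rik. Its genes needed 50 CPM in 1 of the 2 sets, so they could pass through aWT members alone.

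Of 4 features that overlap ribosomal RNA, 1 was 1.5-fold higher and 0 lower in aKO members (median 0.42), and 3 were lower and 0 higher in aWT members (-0.77). Gm42418 had 6494 CPM in aKO members and 5205 in aKO reference barcodes, and 7413 in aWT members and 13155 in aWT reference barcodes, with ratios of 0.32 and -0.83. Lars2, a mitochondrial leucyl-tRNA synthetase gene whose locus is known to collect ribosomal RNA reads, had 434 CPM in aKO members and 299 in aKO reference barcodes, and 141 in aWT members and 379 in aWT reference barcodes. The ratio of Lars2 was 0.53 in aKO and -1.40 in aWT. Both features passed 1.5-fold in aWT and not in aKO.

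Endothelial identity genes differed less than the housekeeping groups in aKO. In the pan-endothelial list 2 of 20 genes were 1.5-fold higher and 4 lower in aKO members (median 0.06), and 1 higher and 11 lower in aWT members (-0.75). The aKO shares lay near the 8.84% higher and 19.3% lower of all genes, whereas in aWT 18.9% of all genes were higher and 25.4% lower. Flt1, a VEGF receptor, had 2480.0 CPM in aKO members and 1137 in aKO reference barcodes, and 1760.4 in aWT members and 1570.3 in aWT reference barcodes. Kdr, the main signalling VEGF receptor, had 121 CPM in aKO members and 392 in aKO reference barcodes, and 379 in aWT members and 570.2 in aWT reference barcodes. The pair split within aKO, with ratios of 1.12 for Flt1 and -1.66 for Kdr, and in aWT the ratios were 0.16 and -0.58. Cldn5, a tight junction gene, had 1623 CPM in aKO members and 2335 in aKO reference barcodes, and 545 in aWT members and 1911 in aWT reference barcodes, and its ratio was -0.52 in aKO and -1.80 in aWT. The VEGF and sprouting list, which holds both receptors, had 2 higher and 6 lower of 11 in aKO (-0.64) and 2 higher and 2 lower of 11 in aWT (-0.31), the aWT shares being no larger than those of all genes.

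Subclass genes were distributed unequally in aKO. Their counts are read against 8.84% of all genes 1.5-fold higher and 19.3% lower in aKO. In aWT these shares were 18.9% and 25.4%. General capillary genes had 1 of 11 higher and 1 lower in aKO members (median 0.42), while aerocyte genes were lower for 7 of 9 (-1.71), lymphatic genes for 10 of 12 (-1.65), arterial genes for 5 of 9 with 1 higher (-1.16) and venous genes for 6 of 7 (-0.87). In aWT members 2 of 12 general capillary genes were higher and 4 lower (-0.36), 1 of 8 aerocyte genes higher and 5 lower (-0.75), 2 of 7 lymphatic genes higher and 2 lower (-0.23), 1 of 11 arterial genes higher and 5 lower (-0.19), and 2 of 8 venous genes higher and 1 lower (0.20). The aWT counts of general capillary, lymphatic and venous genes thus lay near the shares of all genes. The summed aerocyte level went the other way from its median in aWT, at 6337 CPM in aWT members against 4758 in aWT reference barcodes. Ccl21a, a lymphatic chemokine with near-identical copies, had 405 CPM in aKO members and 1394 in aKO reference barcodes, and 141 in aWT members and 340.0 in aWT reference barcodes. Vcam1, an adhesion molecule of the venous list, had 27.7 CPM in aKO members and 167 in aKO reference barcodes, and 45.9 in aWT members and 38.9 in aWT reference barcodes. The venous median had no stable sign in aWT, where TMM scaling gave -0.01.

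Each barcode was also assigned to the subclass list with the largest summed UMI count. General capillary led in 74.97% of aKO members (647 barcodes; 71.9 to 77.8) against 45.9% of aKO reference barcodes (373; 42.4 to 49.4). In aWT it led in 66.3% of members (264; 61.5 to 71.0) against 72.0% of reference barcodes (2640; 70.5 to 73.4). Lymphatic led in 8.11% of aKO members against 20.05% of aKO reference barcodes, and aerocyte in 6.95% of aKO members against 16.2% of aKO reference barcodes. In aWT, lymphatic led in 6.28% of members against 3.63% of reference barcodes, and aerocyte in 16.3% of members against 13.8% of reference barcodes. Subclass make-up therefore moved with mitochondrial share in aKO more than in aWT. List sums depend on the level of each list, so these are shares of barcodes by leading list, not of cell types.

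Restricting both sets to general capillary leading barcodes kept the lower ribosomal protein genes. In aKO it gave 33 higher genes, of which 12 were among the 58 found without it. Of the 224 lower genes it gave, 174 were among the 390 found without it. Ribosomal protein genes were lower for 80 of 81 (median -1.16) and respiratory chain genes for 25 of 33 (-0.81). The Spearman correlation with span was 0.43. The aerocyte median was then -0.27 over 5 genes, the arterial -0.33 over 6, the venous -0.27 over 5, and the lymphatic 0.18 over 4. In aWT the restriction gave 222 higher genes, 163 of them among the 217 found without it. It gave 802 lower genes, 704 of them among the 741 found without it, a ribosomal median of -1.71 and a correlation of 0.74. Genes of these 5 lists chose the barcodes and so cannot be read as results within them.

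The second comparison set aKO members over aWT members, with the reference barcodes of both libraries beside it. It asks how the 2 labels differ within low-mitochondrial barcodes. In members 567 of 4623 genes (12.3%) were 2-fold higher in aKO and 411 (8.89%) lower; in reference barcodes 226 of 4632 (4.88%) were higher and 145 (3.13%) lower. More genes passed the size rule among members, where the aWT set had 696991 UMIs against 7353882 in the aWT reference set, and the part of depth in this was not tested. The median of all genes was 0.10 in members, which TMM moved by -0.11, and 0.09 in reference barcodes.

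Sex-linked genes separated the libraries. Xist had 1202 CPM in aKO members and 0 in aWT members, at least 279-fold higher against a floor of 3 UMIs, and 889 CPM in aKO and 1.77 in aWT reference barcodes. Uty, on the Y chromosome, had 0 CPM in aKO members and 237 CPM in aWT members, at least 122-fold lower, and Ddx3y had 0 CPM in aKO members and 106 in aWT members, at least 54.9-fold lower. Sex and label therefore cannot be told apart in these libraries. The labels give no sex.

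Genes of BMP9 and ALK1 signalling, the pathway tied to the disease model, were lower in aKO in both sets. Of 10 measured genes, 8 were 1.5-fold lower and 1 higher in aKO members (median -2.15), where 17.6% of all genes were lower and 27% higher. In reference barcodes 9 of 11 were lower and 2 higher (-2.01), where 6.91% of all genes were lower and 12.6% higher. Id1, a direct target of ALK1 signalling, had 32.9 CPM in aKO members and 515 in aWT members, with a ratio of -3.78, and 83.5 CPM in aKO and 1226 in aWT reference barcodes, with a ratio of -3.80. Smad6, an inhibitory Smad, had 211 CPM in aKO members and 1494 in aWT members, and 183 CPM in aKO and 1107 in aWT reference barcodes. The low level of these targets in aKO was thus seen in low-mitochondrial and reference barcodes alike.

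The receptor gene itself was lower too, though less. Acvrl1 (chromosome 15, 101128522 to 101145336, plus strand) had 452 CPM in aKO members (95% interval 419 to 487) and 641 in aWT members (583 to 704), a log2 ratio of -0.50. In reference barcodes it had 556 CPM in aKO and 1173 in aWT, a ratio of -1.07. Which exons a deletion would remove is not given in the labels, and 3' counts outside it would not report on it. Eng, the co-receptor, had 597 CPM in aKO members and 1199 in aWT members, and 579 CPM in aKO and 1272 in aWT reference barcodes, with ratios of -1.001 and -1.13.

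The genes furthest apart between the labels in members had the same sign in reference barcodes by the rule that chose them. St6galnac5, a sialyltransferase gene, had 661 CPM in aKO members and 7.17 in aWT members, and 297 in aKO and 2.99 in aWT reference barcodes. Marcks, an actin-linked substrate of protein kinase C, had 1255 CPM in aKO members and 131 in aWT members, a ratio of 3.22 against 1.56 in reference barcodes. Ucp2, which encodes an inner mitochondrial membrane carrier, had 470.0 CPM in aKO members and 41.6 in aWT members, with ratios of 3.35 in members and 0.95 in reference barcodes. Both were lower in aWT members than in aWT reference barcodes, where Ucp2 had 142 and Marcks 294 CPM.

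Others on the high side were Map3k6, Arrdc2, Sema5a and Tsix. The ratios of Map3k6, Arrdc2 and Sema5a in members ran from 3.87 to 4.11, and in aWT members they rested on 6, 1 and 2 UMIs in that order of naming. Tsix had 0 UMIs in aWT members and was at least 12.1-fold higher in aKO members. On the low side stood Gm20631, 4930444A19Rik, Wdr95 and A430090L17Rik, with Gm26802, Sftpc and the Y-linked genes. The 4 named first had ratios from -5.35 to -4.26 in members, computed after adding 5 CPM. Gm26802 had 0 CPM in aKO members and 102 in aWT members, at least 52.7-fold lower. Wdr95 rested on 1 UMI in aKO members against 93 in aWT members.

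Housekeeping groups were higher in aKO than in aWT members, and much less so in reference barcodes. Respiratory chain genes were 1.5-fold higher for 26 of 31 in aKO members (median 0.86) and for 3 of 33 in reference barcodes (0.28). Ribosomal protein genes were higher for 44 of 80 in members (0.61) and for 9 of 80 in reference barcodes (0.28). Translation factors were higher for 11 of 17 (0.83) and 3 of 18 (0.24). By that limit 27% of all genes were higher in members and 12.6% in reference barcodes. The reference counts of these groups thus lay near the share of all genes. Read with the levels above, the low-mitochondrial barcodes of aWT had the lowest level of each of these groups among the 4 sets. The Spearman correlation between span and ratio was -0.52 across 4622 genes in members and -0.10 across 4631 genes in reference barcodes. Heat shock genes, by contrast, were lower in aKO by similar amounts, for 9 of 10 in members (-1.47) and 9 of 10 in reference barcodes (-1.25). Of all genes 17.6% were lower in members and 6.91% in reference barcodes.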

How the data were processed

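Sorted lung cells were captured with 10x Genomics 3' reagents of version v3, per the labels. The authors deposited raw UMI counts as whole numbers for every gene and barcode. Cell Ranger 7.2.0 and the build mm10 are named in the submitters' processing notes; the annotation release and the handling of intronic and antisense reads were not given in the sources used here. The matrices list 32286 features; spans came from GENCODE M21 for 32235 of them. Members, lists and comparisons were chosen with earlier results of these data known.

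UMIs were summed over the barcodes of each set, leaving out 13 mitochondrial features, and scaled to CPM. Ratios added 5 CPM to each set; genes needed 50 CPM in 1 set, calls were by size (2-fold; 1.5-fold for the 33 fixed lists and ribosomal proteins). Intervals are 95% exact Poisson for CPM and shares of UMIs, and Clopper-Pearson for shares of barcodes. Counted in UMIs, the Poisson intervals are counting errors of molecules, and no interval holds variation between animals. Named genes were the 12 highest and 12 lowest aKO ratios with the same sign in aWT (1 of the 12 highest is not reported here), the 8 highest and 8 lowest between aKO and aWT members with the same sign in reference barcodes, up to 4 per list by size, and 9 set genes; any other gene was named as a list member or marker, or after its values were seen. Scrublet scores were computed through scanpy 1.11.5; its automatic threshold called 1 of 15996 aWT barcodes and 388 of 11045 aKO barcodes and so had not worked, and doublets were kept except in an alternative that removed the top scores at 0.8% per 1000 barcodes (976 aKO, 2047 aWT). The size rule was checked on simulated data. Alternatives used edgeR 4.0.16 (TMM) and DESeq2 1.42.0 size factors, other minima, pseudocounts, a matched UMI distribution, limits and sets. Leaving out shared barcodes or Malat1-poor barcodes was added after the data had been seen. Python 3.11.15, numpy 2.4.6, scipy 1.17.1, pandas 2.3.3 and R 4.3.3 were used.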

Additional observations from a re-analysis of the deposited data

Results flagged for a closer look

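Prox1, the master transcription factor of lymphatic endothelium, moved in opposite directions in the 2 libraries. It had 44.5 CPM in aKO members and 164 in aKO reference barcodes, a log2 ratio of -1.77, and 86.1 CPM in aWT members and 29.4 in aWT reference barcodes, a ratio of 1.41. Each library is a single sample, so this difference between aKO and aWT was not tested. Beside it, lymphatic genes led in 8.11% of aKO members and 20.05% of aKO reference barcodes, and in 6.28% of aWT members and 3.63% of aWT reference barcodes.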

How the results depend on the processing

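No paired analysis was possible because each label has 1 library, and for the same reason no replicate could be left out. The comparison of aKO with aWT members has no reference set, so the stricter reference of 2% to 15% was not run for it. Counts of calls are given as higher and lower in members over reference barcodes, then aKO over aWT members. A pseudocount of 20 CPM gave 34 higher in aKO (58 by the rule used), 143 in aWT (217) and 347 between members (567). A minimum of 200 CPM gave 30 and 167, 45 and 239, and 149 and 145, and no minimum gave 139 and 763, 781 and 1405, and 1525 and 1342; fewer or more genes are tested there by construction. TMM and DESeq2 factors gave 135 and 140 higher in aWT. A reference of 2% to 15% gave 93 higher in aKO; general capillary leading barcodes gave 33 and 224 in aKO, and leaving out Malat1-poor barcodes 38 and 230. The share of members was 26.1% in aKO and 3.64% in aWT at a limit of 0.25%, 58.8% and 16.7% at 1%, and 7.36% in aWT at 1500 to 3000 UMIs.

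Of single genes past 2-fold and list medians past 1.5-fold, 6 values changed sign; nearer to 0, 7 values of genes and 36 of list medians did. In general capillary leading barcodes of aKO the lymphatic median was 0.18, Cytl1 0.015 and Chst1 0.66; both genes are under 50 CPM there, and the lymphatic list and Chst1 helped to choose the barcodes. Between aKO and aWT members the alveolar median was -1.19 at a minimum of 200 CPM and -0.90 with none, and the sex-linked median 1.16 at 200 CPM; the lists then hold other genes. For these and other changes the cause was not tested. Over all alternatives, 1294 values of genes and 1149 list medians stayed within the limits set and 152 and 65 moved. Counted by 50 CPM in 1 of the 2 sets instead of in reference barcodes, 94 of 151 noncoding and 71 of 87 antisense genes were higher in aWT members. Depth limits the aWT members most, where 3 UMIs are 4.30 CPM.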
